A study of Mus musculus with 18 samples.

Results

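The genes described here encode the machinery of the lysosome: subunits of its proton pump, proteins of its membrane, the acid hydrolases of its lumen with their cofactors, and Tfeb, a transcription factor that switches such genes on. They were followed in poly(A) RNA sequencing of mouse cells before and during gastruloid formation. The list holds 45 genes of the 55401 gene IDs counted in each library. All 45 were matched by symbol to 1 gene ID each, and all 45 were among the 17795 genes that passed the filter on low counts. The list was drawn up with the effect of doxycycline (Dox) at day 0 and day 5 in view, because several of its genes were lower with Dox at day 0 and higher with Dox at day 5. For those 2 comparisons, and for the difference between them, the values of the 45 genes are therefore a description, and no p-value is printed. A gene called there had an adjusted p under 0.05 in edgeR, which marks it within the list and does not test the list.

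The study used RHKI, a line derived from E14Tg2a embryonic stem cells, whose genotype is given as an HA-Rnaseh1 knock-in. Rnaseh1 is a nuclease that cuts the RNA strand of RNA-DNA hybrids (R-loops), and the title of the series names R-loops, the histone variant H2A.Z and lineage allocation. Stem cells were grown with LIF and the inhibitors CHIR-99021 and PD0325901, and the Dox arm received 500 ng/ml for 48 hours before the cells were turned into gastruloids, which are aggregates that form embryo-like axes. Libraries were made at day 0 (0 hours), day 3 (72 hours) and day 5 (120 hours), with 3 control and 3 Dox libraries at each day, so 6 groups of 3 and 18 libraries in all. Control libraries carry the same knock-in and differ from the Dox libraries only in the drug, as far as the labels say. No line without the knock-in was given Dox here, so an effect of the drug itself and one of Rnaseh1 cannot be told apart. Everything comes from 1 line, and the labels do not say whether Dox was kept on after day 0 or whether replicates are separate cultures. The p-values therefore measure the spread between these libraries, estimated for each gene over all 18 together and not for each day.

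Lysosomes break down proteins, glycans, lipids and nucleic acids taken up by endocytosis or delivered by autophagy. The V-ATPase pumps protons into the lumen, and most hydrolases work only at the acid pH that this creates. TFEB and its relatives TFE3 and MITF leave the cytoplasm for the nucleus when the kinase mTORC1 is inactive, and bind an E-box in the promoters of many lysosomal genes. Inherited loss of single hydrolases or membrane proteins causes lysosomal storage diseases, among them Tay-Sachs disease (HEXA) and mucopolysaccharidosis (NAGLU, SGSH, IDUA and others).

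Rnaseh1 (ENSMUSG00000020630, GRCm38 chromosome 12, 28649602-28659589) was measured as TMM-scaled CPM, counts relative to library size. At day 0 it was 25.8, 30.3 and 28.7 CPM in the controls and 172, 137 and 149 with Dox, at day 3 22.2, 24.0 and 24.1 against 67.9, 70.2 and 66.1, and at day 5 19.3, 20.1 and 19.7 against 53.7, 57.4 and 60.4. The Dox labels therefore hold in every library, with a fold of 5.39 at day 0 and 2.90 at days 3 and 5 (edgeR quasi-likelihood test, adjusted p = 4.1e-13, 9.9e-10 and 1.3e-09). Total counts per library ran from 25748897 to 38128366. Day 0 Dox replicate 2 stood apart: an rRNA gene, CT010467.1, took 4.76% of its counts, and between 0.144 and 0.483% in each of the remaining 17. The cell type label is a mouse embryonic stem cell at every day, but the summed TPM (the authors' length-scaled abundance unit) of 8 naive stem cell markers was 1692-1927 in the day 0 controls and 4.95-6.19 in those of day 5. Markers of macrophages and blood, whose lysosomes are abundant, summed to at most 3.41 TPM over 11 genes in any library, and Ptprc, Aif1, Tyrobp and Hbb-bh1 had no counts in any group.

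No promoter sequence was read in choosing the genes. The 45 are known lysosomal genes, though, and TFEB is known to bind an E-box in the promoters of many such genes. The shares below are therefore a description. RefSeq promoter windows of GRCm38.p6, from 250 bases before to 50 bases after a gene's start, were searched on both strands for TCACGTG, an E-box of the kind that TFEB binds. A window was found for 40 of the 45 genes, and 15 of these (37.5%) held the motif, against 4.29% of the 27025 genes in the table. The core CACGTG, which overlaps the longer motif, was present in 16 (40.0%) against 8.09%. Printed here are stretches of the 5 promoters that hold the motif among the 12 genes called at day 0 or day 5, with the motif in capitals (8 capitals are 2 overlapping copies on opposite strands). Mcoln1 and Lamp1 were added to the set after their values were seen. Each is written 5′ to 3′ on the strand of its gene.
Dpp7 (chr2:25356339-25356466, minus strand): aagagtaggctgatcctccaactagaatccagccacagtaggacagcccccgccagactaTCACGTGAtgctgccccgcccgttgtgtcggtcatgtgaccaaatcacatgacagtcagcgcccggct
Ctsa (chr2:164833700-164833784, plus strand): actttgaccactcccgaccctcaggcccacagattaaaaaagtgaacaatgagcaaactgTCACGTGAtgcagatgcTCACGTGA
Atp6v0d1 (chr8:105566061-105566128, minus strand): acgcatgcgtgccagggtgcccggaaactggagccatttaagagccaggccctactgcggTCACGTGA
Mcoln1 (chr8:3500387-3500518, plus strand): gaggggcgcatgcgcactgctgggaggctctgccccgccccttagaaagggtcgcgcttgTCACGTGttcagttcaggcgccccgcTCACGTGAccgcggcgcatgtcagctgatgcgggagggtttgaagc
Lamp1 (chr8:13159039-13159160, plus strand): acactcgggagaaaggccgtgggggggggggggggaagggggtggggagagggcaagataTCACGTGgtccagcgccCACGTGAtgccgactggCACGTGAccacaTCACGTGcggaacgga

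Lamp1, the most abundant lysosomal membrane glycoprotein, had 4 core sites, all within 61 bases of its start. Mcoln1, the calcium channel of the lysosomal membrane, and Ctsa, a carboxypeptidase that also holds neuraminidase in a stable complex, had 2 each. Dpp7, a dipeptidyl peptidase, and Atp6v0d1, a subunit of the membrane sector of the proton pump, had 1 each, 73 and 3 bases before the start. By role, the motif was found in 2 of 4 proton pump genes, 3 of 6 membrane protein genes, 4 of 8 protease genes, 4 of 11 glycosidase genes and 2 of 4 sulfatase genes, and in none of the 6 lipid-handling genes with a window. Of 59 other lysosomal genes 46 had a window, and 5 of these (10.9%) held the motif. Of 15 genes of lysosomal sorting 11 had a window, and 6 of these (54.5%) held it. At day 0, 5 of 15 genes with the motif were called lower with Dox (median log2 fold change -0.15) and 6 of 25 without it (median -0.23). Over all genes tested 0.747% were called lower. The day 0 comparison chose the genes, so nothing is read from these counts about the motif. A match describes these letters and shows no binding.

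The 45 genes differed widely in level. On the TPM scale, which is per length and allows genes to be compared, Lamp1 was highest (mean over 18 libraries 213), followed by Psap, the precursor of the sphingolipid activator proteins (134), the cysteine protease Ctsl (133), the tetraspanin Cd63 (126) and the aspartic protease Ctsd (118). Within their groups Atp6ap1, an accessory subunit of the proton pump, reached 73.6, Hexa, the alpha subunit of beta-hexosaminidase, 63.4, and Arsa, which removes sulfate from sulfatide, 11.2. The sulfatase Arsb (0.801) and the aminopeptidase Ctsh (0.241) were lowest. Ctsh passed the filter with only 6 counts over the 3 day 0 controls and 32 over the day 3 controls, so its fold changes rest on few reads. Summed over all 45 genes, the controls held 2595, 2758 and 2755 TPM at day 0, 1798, 1782 and 1787 at day 3, and 1555, 1457 and 1480 at day 5.

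In control cells more of these genes fell than rose in each step of differentiation. From day 0 to day 3, 29 of the 45 fell and 9 rose (background over all genes tested 36.3% lower and 37.2% higher), with a median log2 change of -0.47 against 0.016 for all genes. From day 3 to day 5, 29 fell and 11 rose (background 33.1% and 31.7%), with a median of -0.38 against -0.008. A set of 21 genes fell in both steps, and Naglu, Sgsh, Smpd1 and Lipa rose in both. These steps share the control libraries with the comparisons that chose the genes. Scaling by library size alone shifted the median of all genes by 0.148 in the earlier step, and 25 genes then fell and 12 rose. In bulk RNA fewer cells of a type and less RNA per cell cannot be told apart, here and in all results that follow.

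**Figure D1:**
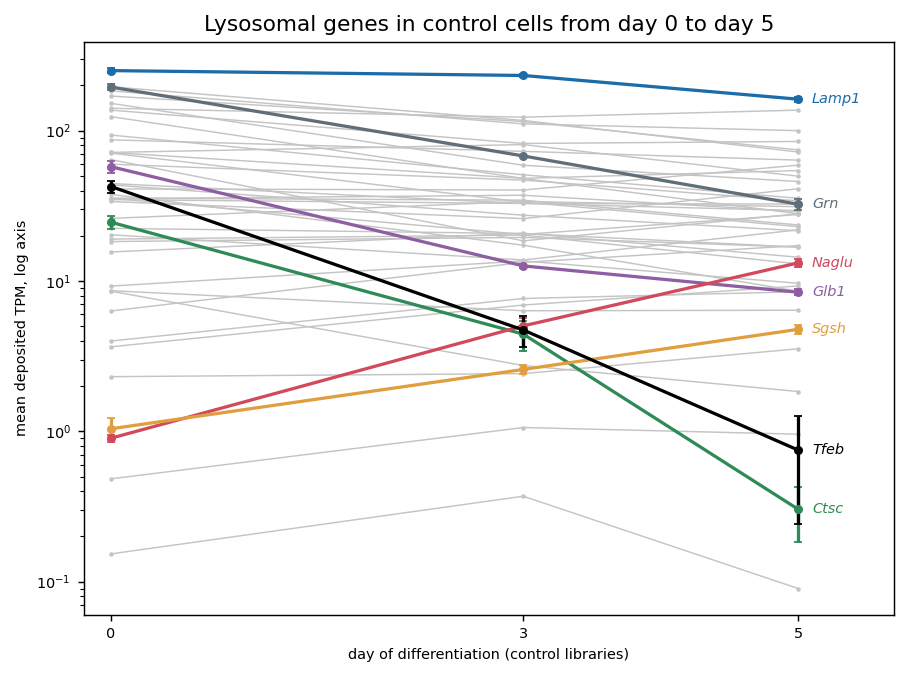
Mean deposited TPM (log axis) of the 45 lysosomal genes in the control libraries at day 0, day 3 and day 5, with 7 genes in colour or black and named (bars, SD, n = 3) and the others in grey. Tfeb and Ctsc go from 42.5 and 24.6 TPM to 0.75 and 0.303, and Naglu from 0.90 to 13.2.

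Tfeb, the transcription factor of the list, fell in both steps. It was at 59.4, 74.3 and 53.4 CPM in the day 0 controls, 5.15, 7.42 and 7.17 at day 3, and 0.813, 0.760 and 0.514 at day 5. The groups did not overlap, and the fall was 9.42-fold from day 0 to day 3 (log2 fold change -3.24, SE 0.16, adjusted p = 7.7e-13, edgeR) and 9.66-fold from day 3 to day 5 (-3.27, SE 0.24, adjusted p = 5.4e-10). Of its relatives, Mitf fell 21.6-fold in the earlier step (adjusted p = 6e-15), from 27.2, 33.3 and 30.2 to 1.29, 1.62 and 1.25 CPM. Tfe3 did not pass the test in that step (adjusted p = 0.8) and fell 3.05-fold in the later one, from 130, 127 and 138 to 44.6, 44.2 and 40.9 CPM (adjusted p = 6e-14).

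Among the 10 proteases and peptidases, 9 fell and 1 rose by day 3, and 7 fell and 2 rose from day 3 to day 5. Ctsc, a dipeptidyl peptidase that activates serine proteases of immune granules, was at 43.7, 49.4 and 37.5 CPM at day 0, 5.08, 8.32 and 7.32 at day 3, and 0.237, 0.317 and 0.437 at day 5. Those values amount to a 6.26-fold and then a 20.3-fold fall (adjusted p = 5.6e-10 and 6e-10). Lgmn, an endopeptidase that cuts after asparagine, fell and then rose, from 72.7, 95.8 and 92.8 CPM to 23.8, 21.8 and 23.0 and then to 30.3, 34.5 and 31.9. Both steps of Lgmn passed the test (3.81-fold lower, adjusted p = 1.2e-11, and 1.41-fold higher, adjusted p = 0.00075). Ctsh was the 1 protease that rose by day 3, from 0.117, 0.0623 and 0.0374 to 0.432, 0.360 and 0.128 CPM (adjusted p = 0.014), and it fell again by day 5 to 0, 0.127 and 0.0257 (adjusted p = 0.005). The rise was not called without day 0 control replicate 3 or day 3 control replicate 1.

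The 11 glycosidases split, with 7 lower and 2 higher by day 3 and 7 lower and 3 higher in the later step. Glb1, the lysosomal beta-galactosidase, fell from 93.2, 121 and 99.1 CPM to 19.4, 21.3 and 20.6, a 5.11-fold change (adjusted p = 5.9e-14), and on to 12.4, 13.9 and 12.1 (adjusted p = 7.8e-06). Naglu, which removes N-acetylglucosamine from heparan sulfate, moved the other way, from 1.40, 1.74 and 1.61 CPM at day 0 to 9.76, 7.91 and 8.16 at day 3 and 19.3, 21.3 and 19.8 at day 5. Its rises were 5.38-fold (adjusted p = 1.6e-12) and 2.34-fold (adjusted p = 2.5e-09). Idua, the iduronidase of the same pathway, did not pass in the earlier step (adjusted p = 0.4) and rose in the later one, from 4.81, 3.11 and 3.89 to 5.76, 6.59 and 5.81 CPM (1.54-fold, adjusted p = 0.0031).

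Of the 4 sulfatases 3 rose by day 3 and none fell. Sgsh, which removes N-linked sulfate from heparan sulfate, went from 3.20, 2.96 and 2.88 CPM to 7.34, 7.53 and 8.37 (2.57-fold, adjusted p = 9.3e-09) and then to 13.6, 14.0 and 12.3 (1.71-fold, adjusted p = 5.3e-06). Arsb, the sulfatase of dermatan and chondroitin sulfate, rose 1.96-fold by day 3 (1.44, 1.5 and 1.54 to 3.15, 3.16 and 2.48 CPM, adjusted p = 0.0001) and did not pass in the later step. Ids, the iduronate sulfatase, rose 1.65-fold by day 3 (adjusted p = 9.6e-06). Summed TPM of the 4 genes was 14.4-15.1 at day 0 and 23.5-25.7 at day 3, so the ranges did not overlap.

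All 5 proton pump genes fell from day 3 to day 5, by 1.13-fold (Atp6v1h, a regulatory subunit of the peripheral sector) to 1.72-fold (Atp6v0d1). By day 3 the catalytic subunit Atp6v1a had already fallen 2.06-fold (adjusted p = 7.2e-12), while Atp6v0a1, a membrane subunit, had risen 1.3-fold (adjusted p = 1.5e-06) and Atp6v0d1 stood at 79.3, 79.2 and 77.4 CPM against 76.1, 87.4 and 72.0 at day 0. The 7 membrane proteins fell in 4 cases by day 3 and in 5 from day 3 to day 5. Scarb2, which carries glucocerebrosidase to lysosomes, fell from 64.4, 62.5 and 90.8 to 46.7, 44.7 and 41.4 CPM and returned to 66.6, 64.7 and 66.4 (adjusted p = 1.5e-05 and 0.0002), and Lamp2, a membrane glycoprotein needed for chaperone-mediated autophagy, rose 1.36-fold in the later step (adjusted p = 0.0038). Of the 7 lipid-handling proteins and cofactors, Grn, progranulin, fell most: 258, 313 and 288 CPM at day 0, 85.6, 89.9 and 93.5 at day 3, and 37.8, 40.2 and 37.9 at day 5 (3.20-fold and 2.32-fold, adjusted p = 1.6e-12 and 4.3e-10). In that group the acid sphingomyelinase Smpd1 rose 1.8-fold and 1.29-fold (adjusted p = 1.5e-06 and 0.0056) and the acid lipase Lipa 1.74-fold and 1.25-fold (adjusted p = 2e-05 and 0.028).

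At day 0, after 48 hours of Dox in stem cells, 34 of the 45 genes had a log2 fold change below 0. The median was -0.15, against -0.001 for all genes tested. Called lower were 11 genes (Atp6v0d1, Ctsa, Dpp7, Grn, Hexa, Lamp1, Manba, Mcoln1, Npc2, Ppt1 and Tpp1) and called higher none. Over all genes tested 0.747% were called lower and 0.292% higher, and nothing is read from the difference, since this comparison chose the genes. In 19 of the 45 every Dox library lay below every control library (background 5.64%), and in 2 above every control (background 4.59%).

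**Figure D2:**
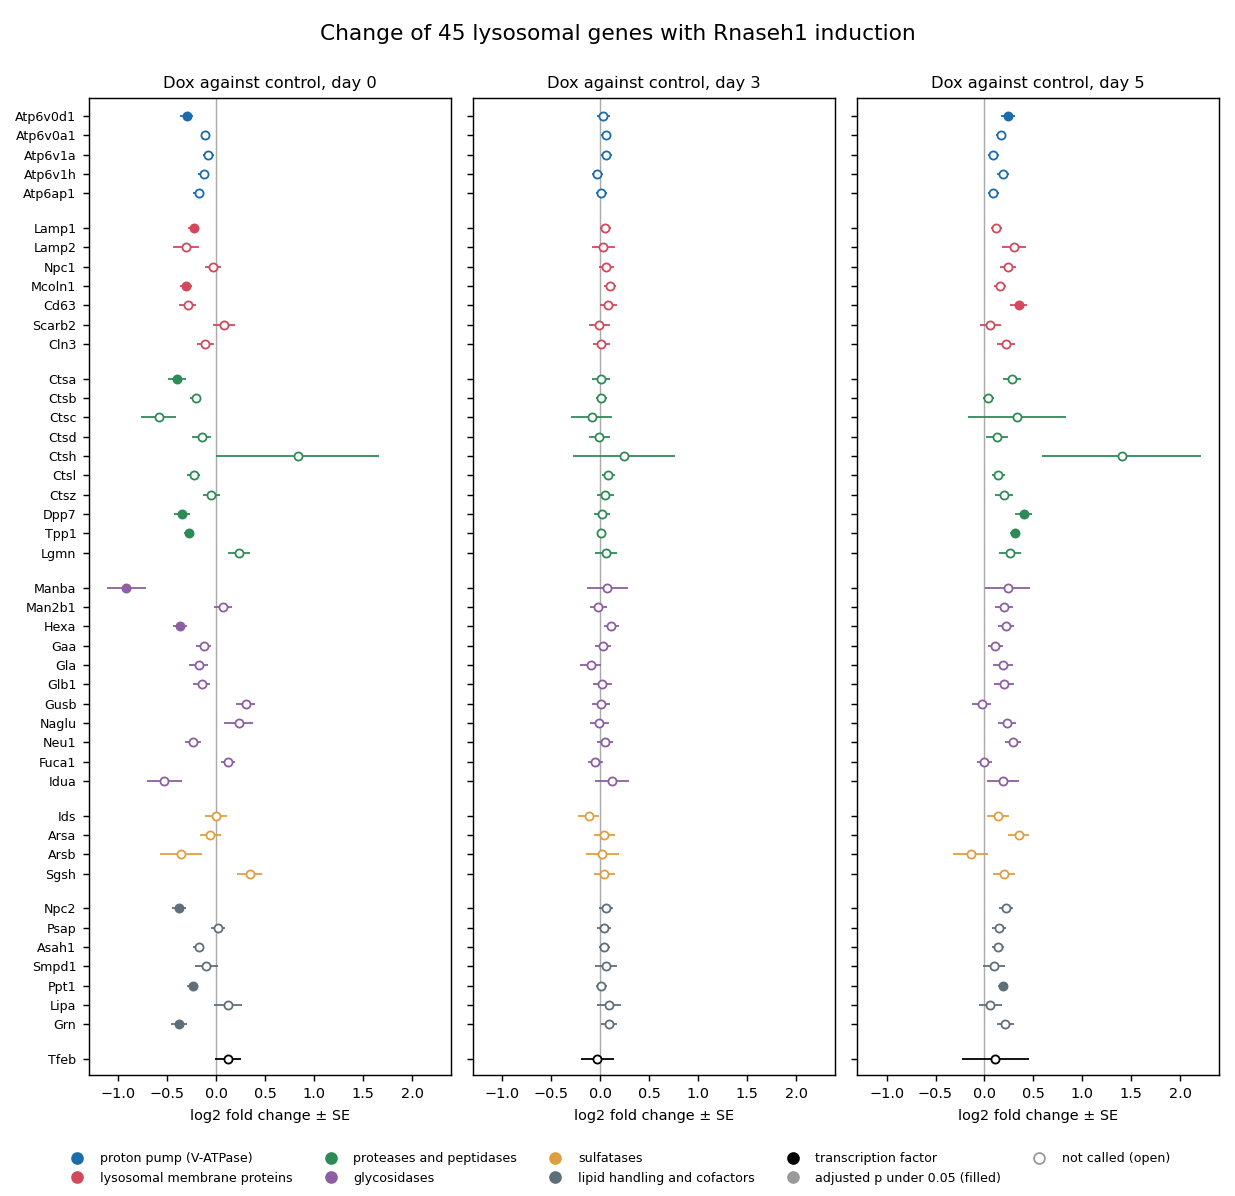
Log2 fold change (± SE) of each of the 45 lysosomal genes, Dox against control, at day 0, day 3 and day 5, grouped and coloured by role. Filled points passed an adjusted p of 0.05 in edgeR: 11 at day 0, all lower, none at day 3, and 5 at day 5, all higher.

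Manba, the lysosomal beta-mannosidase, showed the lowest value, with 22.5, 16.4 and 18.7 CPM in the day 0 controls and 14.5, 5.96 and 10.0 with Dox. All Dox libraries lay below all controls, and the fold was 1.89 lower (log2 fold change -0.92, SE 0.20). Without Dox replicate 2, the library with the high rRNA share and the lowest Manba value, the log2 fold change was -0.65. It was then no longer called, nor without day 0 control replicate 1 or any of 9 libraries of the later days.

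Ctsa stood at 150, 202 and 171 CPM in controls and 117, 132 and 148 with Dox, a log2 fold change of -0.40 (SE 0.089). For Grn the values were 258, 313 and 288 against 199, 202 and 258, which is -0.38 (SE 0.082), with the highest Dox library just under the lowest control. Npc2, which binds cholesterol in the lysosomal lumen, had 299, 353 and 266 in controls and 230, 233 and 242 with Dox (-0.38, SE 0.074). In all 3 genes the Dox libraries lay below the controls without overlap, at a fold of 1.3 to 1.32 lower. Hexa went from 170, 197 and 178 to 128, 135 and 159 CPM (-0.37, SE 0.076), and Dpp7 from 41.2, 47.8 and 37.0 to 33.6, 30.8 and 34.6 (-0.35, SE 0.081), again without overlap.

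By role, the called genes were 1 of 5 proton pump subunits, 2 of 7 membrane proteins, 3 of 10 proteases, 2 of 11 glycosidases, 0 of 4 sulfatases and 3 of 7 lipid-handling proteins and cofactors. Not every gene was lower. Gusb, the beta-glucuronidase, and Sgsh had every Dox library above every control, at log2 fold changes of 0.30 and 0.34, and were not called. Psap, second in level, was at 326, 388 and 373 CPM in controls and 326, 375 and 403 with Dox (0.02, SE 0.072). Tfeb was at 59.4, 74.3 and 53.4 against 57.2, 79.9 and 65.9 (0.12, SE 0.13). The groups of Psap and of Tfeb overlapped.

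The count of 11 moved with the libraries in the fit. With the day 0 libraries alone it was 0, and 2 with a replicate block in that fit. It was 2 without day 0 Dox replicate 2, 3 without day 0 control replicate 2, 4 without day 0 Dox replicate 1, and 5 to 7 when any of the 6 day 3 libraries, day 5 control replicates 1 or 3, or day 5 Dox replicates 2 or 3 was left out. Of the single libraries left out, day 0 Dox replicate 2 was the 1 that ended the call of Npc2, at a log2 fold change of -0.37. The calls of Grn and Hexa were lost without that library, day 0 Dox replicate 1 or day 0 control replicate 2. Tpp1 was called with each of the 18 libraries left out in turn, but not with the day 0 libraries alone. Leaving out a day 3 or day 5 library keeps all day 0 libraries and changes only what the fit shares, such as the spread. This comparison chose the genes, so a call that stays is a description and no test.

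**Figure D3:**
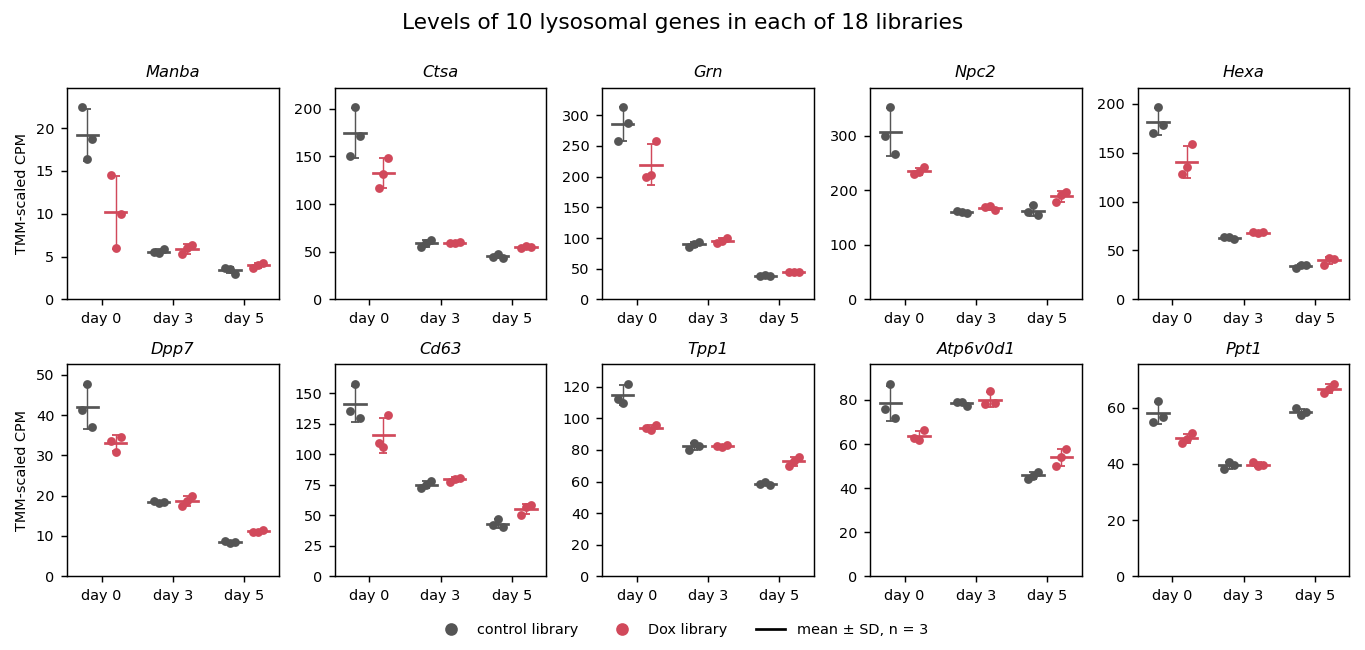
TMM-scaled CPM of 10 lysosomal genes in each library (points), with the mean and SD of 3 libraries, control in grey and Dox in red, at days 0, 3 and 5. At day 0 every Dox library lies below every control in all panels but Cd63, and at day 5 the Dox mean is the higher one in all 10.

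At day 3 none of the 45 genes was called in either direction (edgeR), nor with DESeq2 or limma-voom, and none had an unadjusted p under 0.05. This comparison did not enter the choice of the genes. Over all genes tested 0.0169% were called higher and 0.0% lower. Log2 fold changes ran from -0.12 to 0.24 with a median of 0.03, and 35 of the 45 were above 0, against 49.7% of all genes. Every Dox library lay above every control for 5 genes and below for none, where the background was 5.66% and 5.46%. The smallest p belonged to Mcoln1, with 35.3, 32.6 and 37.3 CPM in controls and 36.7, 38.1 and 37.7 with Dox (log2 fold change 0.10, SE 0.060, adjusted p = 1), followed by Hexa with 63.8, 63.7 and 61.5 against 68.4, 67.8 and 68.4 (0.11, SE 0.078, adjusted p = 1). Rnaseh1 was still 2.90-fold higher in these Dox libraries. A p above the threshold does not show that the levels were equal, and for Ctsh the estimate was wide (0.24, SE 0.52).

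At day 5 the direction in the gastruloids was the opposite of that at day 0. A log2 fold change above 0 was found for 43 of the 45 genes, with a median of 0.19 against 0.003 for all genes tested. Called higher were 5 genes (Atp6v0d1, Cd63, Dpp7, Ppt1 and Tpp1) and called lower none, with a background of 2.39% and 2.34%. In 30 genes every Dox library lay above every control library (background 13.8%), and in none below (background 12.3%). As at day 0, this comparison chose the genes and the counts are a description.

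Dpp7 showed the largest called value, with 8.74, 8.30 and 8.46 CPM in controls and 11.0, 11.1 and 11.5 with Dox, a fold of 1.32 (log2 fold change 0.40, SE 0.090). Cd63 was at 41.8, 47.3 and 40.4 in controls and 50.5, 56.5 and 58.6 with Dox (0.35, SE 0.089). Tpp1, a tripeptidyl peptidase, went from 58.7, 59.5 and 57.9 to 70.1, 73.0 and 75.7 (0.31, SE 0.048). In each the groups did not overlap. Atp6v0d1 had 44.3, 45.6 and 47.3 CPM in controls and 50.1, 54.2 and 57.7 with Dox (0.24, SE 0.068). Ppt1, which strips fatty acids from proteins, had 59.7, 57.3 and 58.4 against 65.2, 66.6 and 68.5 (0.19, SE 0.053), again apart. Atp6v0d1, Dpp7, Ppt1 and Tpp1 were called in both comparisons, lower at day 0 and higher at day 5, and 33 genes had a log2 fold change below 0 at day 0 and above 0 at day 5.

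Several genes that were called at day 0 lay above 0 at day 5 without being called. Manba was at 3.66, 3.49 and 3.01 CPM in controls and 3.65, 4.06 and 4.24 with Dox (0.24, SE 0.23), with overlap. Ctsa was at 44.2, 47.5 and 43.8 against 54.0, 56.2 and 54.8 (0.28, SE 0.093) and Npc2 at 161, 173 and 154 against 178, 192 and 197 (0.22, SE 0.074), both without overlap. Only Arsb (-0.14) and Gusb (-0.03) were below 0. Tfeb was under 1 CPM in every day 5 library, 0.813, 0.760 and 0.514 against 0.7, 0.793 and 0.722 CPM (0.11, SE 0.34). In the difference between the days (day 5 minus day 0) 17 of the 45 were called higher and none lower, with a background of 1.76% and 1.52%. The median difference was 0.33 on the log2 scale. Since the genes were chosen with both days in view, a positive difference was built into the list. Nothing is read from this count.

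The count of 5 at day 5 also moved with the fit. It was 9 with a replicate block, 10 with DESeq2 and 15 with the day 5 libraries alone. It was 1 without day 5 Dox replicate 3, 2 without day 5 Dox replicate 2 or control replicates 1 or 3, 3 without day 5 control replicate 2 or any of the 6 day 3 libraries, and 8 to 10 without any of the 3 day 0 controls or day 0 Dox replicate 3.

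**Figure D4:**
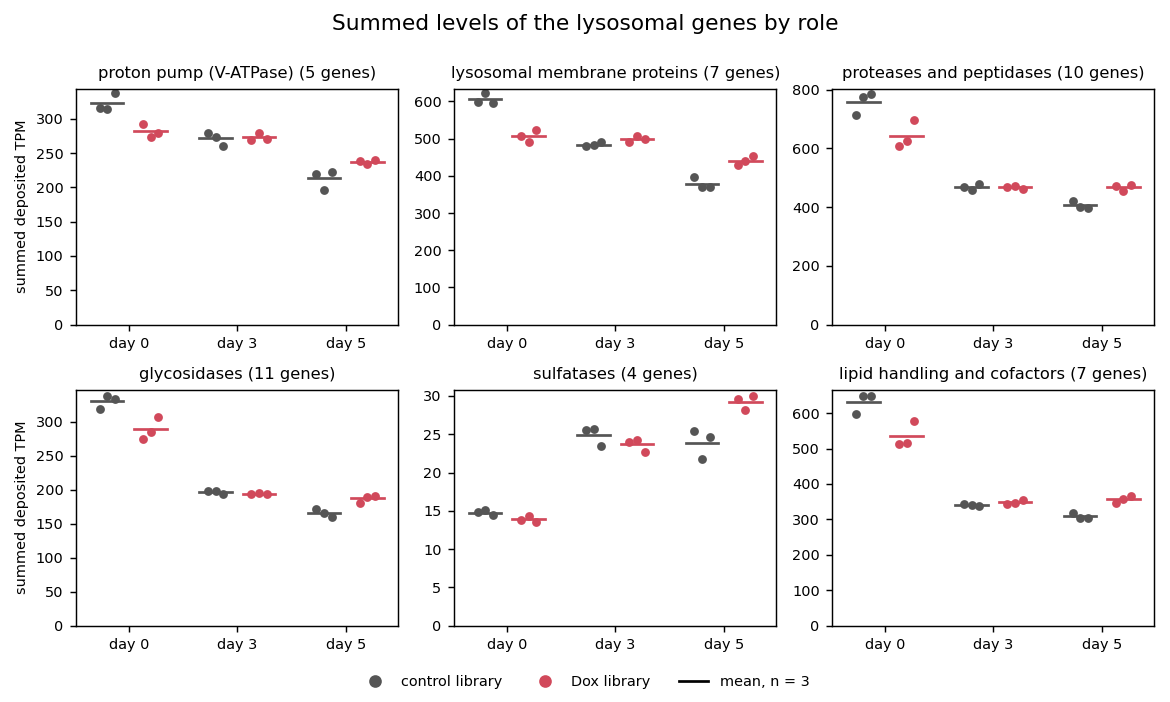
Summed deposited TPM of the lysosomal genes of 6 roles in each of the 18 libraries (points) with group means (lines), control in grey and Dox in red. Dox sums lie below the controls at day 0 for every role and above them at day 5 for every role. For the 4 sulfatases the day 0 gap is narrow (14.4-15.1 TPM in controls, 13.6-14.3 with Dox), and none of them was called. At day 3 the points of both groups lie close together. The membrane proteins, with means of 484 and 500 TPM, are still apart there (479-490 TPM in controls, 492-508 with Dox).

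The sums per library show where the groups lay apart, which for the membrane proteins was at every day. For the 7 membrane proteins the sums were 598, 622 and 597 TPM in day 0 controls and 508, 492 and 523 with Dox, then 479, 482 and 490 against 492, 508 and 500 at day 3, and 398, 369 and 371 against 428, 439 and 452 at day 5. For all 45 genes the Dox libraries held 2247, 2258 and 2446 TPM at day 0, 1795, 1830 and 1811 at day 3 and 1696, 1704 and 1753 at day 5, so the control and Dox ranges were apart at days 0 and 5. TPM is a share of each library, and the sums are given without a test.

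A list of 59 further lysosomal genes, drawn up from textbook knowledge with the results for the 45 known, was tested in every comparison. Of these 55 passed the filter. At day 0 35 of the 55 lay below 0 and 20 above, with a median log2 fold change of -0.07, where 48.6% of all genes tested lay above 0. Below 0 were 11 of 16 proton pump genes, 14 of 20 enzymes and cofactors and 10 of 19 membrane proteins. By call, 1 gene was lower with Dox and none higher (background 0.747% and 0.292%). That gene was Atp6v1b2, a nucleotide-binding subunit of the proton pump, at 219, 244 and 229 CPM in controls and 190, 185 and 192 with Dox (1.22-fold lower, log2 fold change -0.29, SE 0.045, adjusted p = 0.0038). Its groups did not overlap. With only the day 0 libraries in the fit none of the 55 passed, with or without a replicate block. The count was 2 without day 0 control replicate 3 and 5 without day 0 Dox replicate 3, and DESeq2 called 4.

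At day 3 none of the 55 was called by edgeR, DESeq2 or limma-voom, and 1 had an unadjusted p under 0.05 in edgeR. Above 0 lay 36 and below 0 19, with a median log2 fold change of 0.04, where 49.7% of all genes tested lay above 0. Every Dox library lay above every control for 9 genes and below for 1 (background 5.66% and 5.46%). At day 5 3 were higher and none lower (background 2.39% and 2.34%). Gm2a, the cofactor that presents the ganglioside GM2 to beta-hexosaminidase, had 13.7, 13.6 and 14.1 CPM in controls and 15.8, 19.7 and 19.4 with Dox (1.32-fold higher, log2 fold change 0.41, SE 0.089, adjusted p = 0.011). Slc36a1, a proton-coupled amino acid transporter, had 13.7, 13.8 and 13.3 against 16.0, 18.4 and 16.4 (1.25-fold, adjusted p = 0.011), and Ctns, the cystine exporter, had 16.7, 17.0 and 17.6 against 22.1, 19.8 and 22.1 (1.24-fold, adjusted p = 0.03). No groups overlapped in these 3 genes. Gm2a was not called without day 5 Dox replicates 2 or 3, Slc36a1 without control replicate 3 or Dox replicate 2, and Ctns without any control or Dox replicates 1 or 3 of that day. The count was 1 without day 5 control replicate 3, Dox replicate 2 or Dox replicate 3, and 13 with the day 5 libraries alone and a replicate block.

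**Figure D5:**
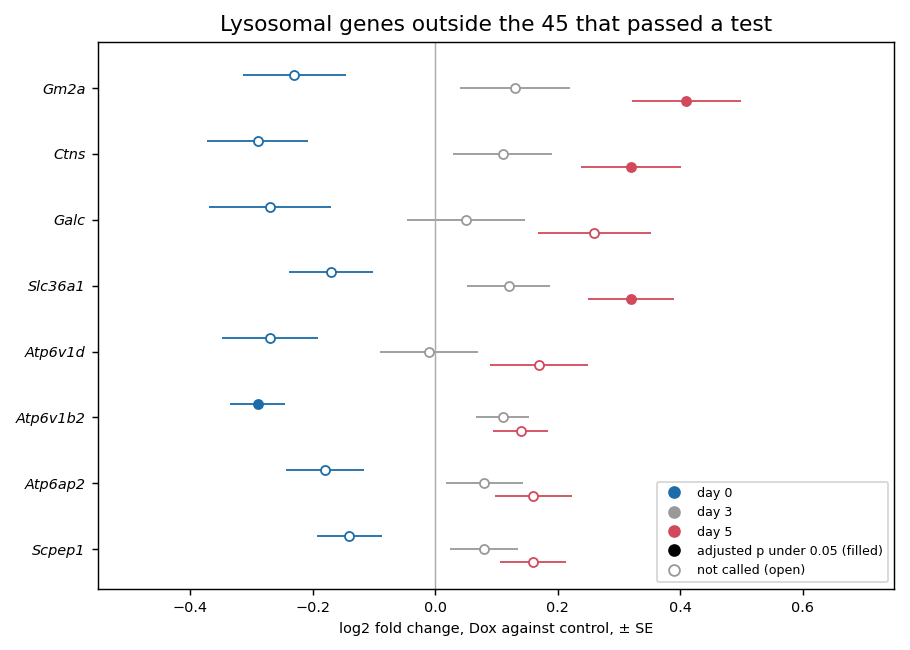
Log2 fold change (± SE), Dox against control, at day 0 (blue), day 3 (grey) and day 5 (red) for the 8 further lysosomal genes called at day 0, at day 5 or in the difference between them, filled where called on that day. Every day 0 value of these 8 is below 0 and every day 5 value above 0, which follows in part from picking them by these comparisons. Of all 55 tested, 20 lay above 0 at day 0 and 10 below 0 at day 5. Gm2a has the highest day 5 value of the 8 (0.41).

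The test of the difference between the Dox effects at day 5 and day 0 was passed by 8 of the 55, all in the direction of a higher value at day 5 (background 1.76% higher and 1.52% lower). They comprise 3 subunits or accessory proteins of the proton pump (Atp6v1b2, Atp6v1d and Atp6ap2), 3 enzymes and cofactors (Gm2a, Galc and Scpep1) and 2 transporters (Ctns and Slc36a1). The difference was 0.64 for Gm2a (SE 0.12, adjusted p = 0.0063) and 0.42 for Atp6v1b2 (SE 0.063, adjusted p = 0.001). The count was 4 without day 0 control replicate 2, any of the 3 day 3 Dox libraries, day 5 control replicates 1 or 3, or day 5 Dox replicates 2 or 3. It was 5 without day 0 control replicate 3, day 0 Dox replicates 1 or 2, day 3 control replicate 2 or day 5 control replicate 2, 13 without day 0 Dox replicate 3, and 3 with only the libraries of those days in the fit. In the controls 34 of the 55 were lower and 13 higher by day 3 (background 36.3% and 37.2%), and 29 lower and 13 higher from day 3 to day 5 (background 33.1% and 31.7%). Atp6v0c, the membrane ring subunit and the highest of the list at a mean of 292 TPM, fell 1.79-fold and 1.46-fold (adjusted p = 1.5e-08 and 6.9e-06) and was at 332, 388 and 322 CPM in day 0 controls against 291, 297 and 328 with Dox (adjusted p = 0.33).

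Genes around the lysosome were counted in 3 more lists, which were also chosen with earlier results of these data known. Over all genes tested 0.747% were called lower at day 0, 2.39% higher at day 5 and 1.76% higher in the difference between the days. Of 15 genes of lysosomal sorting, 3 were lower at day 0 (Vps11 of the HOPS tethering complex, and Vps35 and Vps26a of retromer, at 1.22-fold, 1.18-fold and 1.15-fold, adjusted p = 0.03, 0.027 and 0.035) and 1 was higher at day 5 (Vps26a, 1.15-fold, adjusted p = 0.013). Of 17 MiT factors and genes of lysosomal nutrient sensing, 3 were lower at day 0: Fnip2 and Flcn, partners in the folliculin complex, at 1.45-fold and 1.29-fold (adjusted p = 0.016 and 0.0041), and the Rag GTPase Rragd at 1.34-fold (adjusted p = 0.0059). Rragd was at 76.1, 88.8 and 86.3 CPM in day 0 controls against 57.6, 60.5 and 69.9 with Dox, and at 109, 98.6 and 103 in day 5 controls against 125, 132 and 126 (1.23-fold higher, adjusted p = 0.015). Tfe3 was also higher at day 5, at 50.5, 50.8 and 52.3 CPM with Dox against 44.6, 44.2 and 40.9 (1.19-fold, adjusted p = 0.027). None of 18 autophagy genes was called by edgeR at day 0, day 3 or day 5, with 5, 0 and 5 at an unadjusted p under 0.05, and Gabarap and Sqstm1, which mark autophagosomes and their cargo, passed the test of the difference between days (0.55 and 0.46 on the log2 scale, adjusted p = 0.0074 and 0.03). With only the day 0 libraries in the fit, the day 0 calls of Vps11, Vps35, Vps26a, Fnip2, Flcn and Rragd were all lost. Leaving out day 0 control replicate 1 also ended the calls of the 3 sorting genes and Fnip2, and those of the sorting genes were lost without day 0 control replicate 2, day 0 Dox replicate 2 or day 3 control replicate 1 too. The day 5 calls of Vps26a, Rragd and Tfe3 were lost without day 5 control replicate 3, Dox replicate 2 or Dox replicate 3.

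Markers of other cell types were measured beside these results, and their part in them was not tested. Of 10 endoderm markers that passed the filter, of 16 listed, none was called at day 0, where their summed TPM was 7.22-15.8 in controls and 4.25-7.96 with Dox, and Apoa4 and Cer1 had no counts in either group. At day 5, 2.39% of all genes tested were called higher and 2.34% lower. There Foxa1 (2.65-fold) and Foxa2 (2.53-fold) were lower with Dox (adjusted p = 0.0041 and 0.0028, edgeR). The other 8 endoderm markers tested were not called, and of the 10 there were 6 below 0 and 4 above. Their sums were 16.4-19.1 in controls and 9.52-17.2 with Dox. Among 8 neural tube markers on day 5, Dox libraries were higher for 2 (Elavl3 and Tubb3) and lower for 4 (Neurog2, Nkx6-1, Olig2 and Pax6), with sums of 589-641 and 547-605 TPM, and of 7 somite markers tested 1 was higher and 3 lower, with sums of 106-120 and 80.1-100. The 8 naive stem cell markers summed to 1692-1927 in the day 0 controls and 1761-1924 with Dox, and none was called there.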

How the data were processed

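The deposited tables hold 1 value per gene and library in 3 units. The authors' values used here are expected counts, per the file headers. The TPM values deposited beside them are scaled by transcript length and library total, and FPKM was not used. GRCm38, RSEM 1.3.3, STAR 2.7.10a, DESeq2 1.38.2 and Trimmomatic appear in the submitters' processing notes, without a role or order. A stranded kit for poly(A) RNA was used, per the labels' protocols, and the strand setting of the counting is not given in the sources used here, so overlapping genes may share reads.

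Counts were rounded and filtered with filterByExpr (minimum count 10, minimum total 15), which left 17795 genes. One edgeR quasi-likelihood fit over all 18 libraries (R 4.3.3, edgeR 4.0.16, limma 3.58.1, DESeq2 1.42.0) used group means and TMM factors of 0.894 to 1.06, with a common biological coefficient of variation of 0.09 and 12 residual degrees of freedom. P-values were adjusted by Benjamini-Hochberg over all genes tested, and a call is an adjusted p under 0.05. The fit was tested on simulated data with the same spread for all genes and days and with larger changes than most Dox calls here. That test therefore does not bear on calls of this size. Positions are GENCODE M21 on GRCm38.

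The 45 genes and all lists were chosen with earlier results of these data known. Some further lysosomal genes are not reported here and were left out of the list's counts. The genes given in every library were, for each Dox comparison, the called genes with the largest change (6 at day 0, up to 8 at day 5) or at day 3 the 2 with the smallest p. For each control step they were the 4 that rose and the 4 that fell most, with Tfeb, Manba, the highest of each role and up to 4 called genes of each other list. Other genes named were picked after their values were seen. The labels give a batch tag equal to the replicate number, so the numbers pair libraries. Correlations of deviations between same-numbered control and Dox libraries were 0.206 to 0.331 at day 0, 0.0103 to 0.0365 at day 3 and 0.0224 to 0.0506 at day 5, against -0.252 to 0.0553, -0.0427 to 0.0205 and -0.0565 to 0.0202 for other numbers. The batch is balanced over the groups, and the main fit did not include it. Alternatives were a replicate block, DESeq2, limma-voom, other scaling factors, other filters, fits on the days compared and leaving out each library.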

Additional observations from a re-analysis of the deposited data

Results flagged for a closer look

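For 16 genes outside the 45, the effect of Dox differed between day 5 and day 0 in a direct test of that difference (an interaction in edgeR, adjusted over all genes tested). They were 8 of 55 further lysosomal genes, 3 of 15 sorting genes, 3 of 17 nutrient-sensing genes and 2 of 18 autophagy genes, and over all genes tested 1.76% were called higher and 1.52% lower. All 16 differences were positive. The lists were chosen with earlier results of these data known, so these counts are a description. With only the libraries of those days in the fit, 3 of the 55 further lysosomal genes passed. For the differences of the sorting, nutrient-sensing and autophagy genes no other fit is given here. On the log2 scale they were 0.42 for Atp6v1b2, 0.44 for Atp6v1d and 0.34 for Atp6ap2 among the proton pump genes, with adjusted p of 0.001, 0.037 and 0.041. Among the enzymes and cofactors they were 0.53 for Galc, 0.64 for Gm2a and 0.30 for Scpep1 (adjusted p = 0.044, 0.0063 and 0.035). The transporters Ctns and Slc36a1 differed by 0.61 and 0.49 (adjusted p = 0.0063 and 0.0083).

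Among the sorting genes the differences were 0.37 for Vps35, 0.41 for Vps26a and 0.38 for Vps11 (adjusted p = 0.007, 0.0015 and 0.025). Among the nutrient-sensing genes they were 0.50 for Flcn, 0.34 for Rragc and 0.72 for Rragd, the largest of the 16 (adjusted p = 0.0023, 0.028 and 0.00054). The autophagy genes Sqstm1 and Gabarap differed by 0.46 and 0.55 (adjusted p = 0.03 and 0.0074).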

How the results depend on the processing

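Over the settings, 32 to 36 of the 45 genes lay below 0 at day 0 and 41 to 43 above 0 at day 5, which need not be the same genes (Tfeb at day 0 went from 0.12 to -0.02 without day 0 Dox replicate 2). The counts of calls moved more. For the 45, the day 0 count of lower genes (11) was 0 with only the libraries of that day and 2 with a replicate block added to that fit. The day 5 count of higher genes (5) was 9 with a replicate block, 10 with DESeq2, 9 with library size alone, 8 with no filter, and 15 with only the libraries of that day (21 with a replicate block). For the further lysosomal genes, the day 0 count (1) was 4 with DESeq2, 2 with no filter, 0 with only that day and 0 with a replicate block in that fit. Their day 5 count of higher genes (3) was 6 with DESeq2, 1 with no filter, and 13 with only that day and the block, where 1 gene was also lower. Their count in the difference between days (8) was 14 with DESeq2 and 3 with only the days compared. In the fit over all libraries the replicate block moved no other count by over 1.5 times. Leaving out the rRNA gene CT010467.1, chosen after seeing the data, moved none of these counts by over 1.5 times. The fit over all libraries used 1 spread per gene for every day, while a fit on 1 day used the spread of that day. For the summed TPM of the 45 genes the SD in control and Dox libraries was 93 and 110 at day 0. It was 7.9 and 18 at day 3, and 51 and 31 at day 5. The cause of the moves in the counts was not tested.

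With each library left out in turn, the 45 genes had 2 to 15 lower and 0 to 1 higher calls at day 0, 1 to 10 higher at day 5 and none at day 3. Control steps gave 8 to 10 higher and 26 to 29 lower, then 9 to 11 and 28 to 29. The further genes had 1 to 5 lower at day 0, 1 to 3 higher at day 5 and 4 to 13 in the difference between days. No gene named reversed its direction while called. Ctsh, Tfeb at day 5 and other genes under 1 CPM are limited by counts.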
